A study of Vanessa cardui with 14 samples.

Results

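The hind wing of Vanessa cardui, the painted lady butterfly, was compared between its growing larval state and the pupal state in which colour appears. The larval arm was the 2 hind wing libraries of last instar larvae. The pigment stage arm was the 4 hind wing libraries of pupae, 2 taken at the onset of ommochromes, the red and orange pigments, and 2 at the onset of melanin, the black pigment. These 6 of the series' 14 libraries were chosen by their labels alone, and the comparison ran across all 10780 genes that had at least 1 FPKM in at least 2 libraries, out of 13876 in the table. The other 8 libraries, which were hind wings at 72 h and at 5 d after pupation and dissected red and black forewing regions, 2 each, are used below to show the path between the ends and the level in wings outside the comparison. The sample labels give the forewing regions the melanin stage and the treatment protocol the ommochrome stage. All insects were reared at 28 °C and no genotype or treatment is labelled. The labels name no animals behind the replicate libraries, and the p-values below therefore speak only of how far these particular libraries scatter, which could be technical scatter.

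In a caterpillar the wing is an imaginal disc, a folded epithelial sheet that grows by cell division inside the larva. At pupation it turns outward and spreads, and in the pupa many of its cells become scale cells, each of which makes a flattened cuticular scale. Late in the pupa the scales receive their pigments, ommochromes made from tryptophan and melanins made from tyrosine, and the adult cuticle is laid down and hardened. The net change from disc to pigmenting wing spans all of these events. In RNA of whole wings, a gene that is used by fewer cells and a gene that gives less RNA per cell cannot be told apart.

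Expression is given as FPKM, fragment counts relative to gene length and to library size, as the authors deposited it. Changes are differences in log2(FPKM + 1), a scale that compresses the changes of weakly expressed genes. The genes are assembled sequences known by an identifier of a component and a gene number. Gene names do not come with these identifiers, and 0 of 13876 matched the RefSeq gene table of the species, so the labelled tissue could not be checked against marker genes and no function or sequence is given for any gene. Summed FPKM was 833658 and 792776 in the larval libraries and 482546 to 628027 in the 4 pigment stage libraries. Relative to larval replicate 1, the depth estimated from the steps between low values was 1.04 in larval replicate 2, 1.57 and 1.87 in the ommochrome libraries and 1.27 in melanin replicate 2, but 0.46 in melanin replicate 1. In that library 3641 genes had a value of 0, against 1931 to 2510 genes in the other 5. Replicates had Spearman correlations across the tested genes of 0.96 in the larva, 0.971 with ommochrome onset and 0.927 with melanin onset.

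The net change touched most of the transcriptome. On the deposited scale, 6591 of 10780 genes (61.1%) differed between larva and pigment stages by limma at an adjusted p under 0.05. Of these, 1579 genes (14.6% of all tested genes) were higher and 5012 (46.5% of all tested genes) lower at the pigment stages. The median gene lay 0.65 log2 lower there (median change -0.65). In 7546 genes (70%) the 4 pigment libraries lay all above or all below both larval libraries.

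The balance of rises and falls depended on how the libraries were scaled. Under median-of-ratios scaling, which put the median change at 0, rises and falls numbered 2358 and 2376. They numbered 2040 and 3061 after quantile normalization, and 2023 and 3272 when totals were made equal. When the top 10 genes of each library were removed before totals were made equal, there were 2628 rises and 1966 falls. Rises made up 24% of the calls on the deposited scale and 57.2% under the last scaling. Only 6 genes were called higher under one of the 5 scalings and lower under another.

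**Figure D1:**
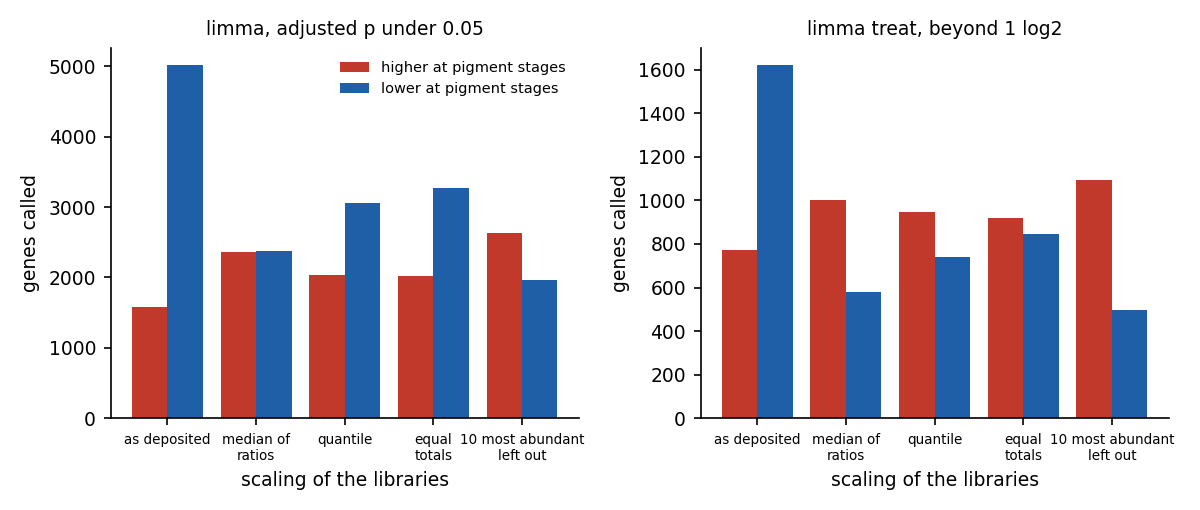
Number of genes called higher (red) or lower (blue) at the pigment stages than in the larva under each of 5 scalings of the libraries; the left panel counts limma calls at an adjusted p under 0.05 and the right panel changes shown to be beyond 1 log2. Falls outnumber rises by 5012 to 1579 on the deposited scale, and rises outnumber falls by 2628 to 1966 when the top genes of each library are removed.

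Larger changes were counted with limma's treat test, which asks whether a change is beyond 1 log2 (a factor of 2). It called 2393 genes (22.2% of all tested genes), of which 773 (7.17% of all tested genes) were higher and 1620 (15%) lower. Median-of-ratios scaling turned the split to 1000 rises and 581 falls, so these counts too depended on the scaling. A set of 753 genes (6.99%) was higher and a set of 480 genes (4.45%) lower by this test under all 5 scalings, a requirement added after the data were seen. These are called the stable higher and stable lower sets below. The stable higher set had a median change of 3.36 log2 (quartiles 2.53 and 4.74), with a median level of 1.15 FPKM in the larva and 37.4 FPKM at the pigment stages. The stable lower set had a median change of -3.52 log2 (quartiles -4.72 and -2.94), from 94.2 to 3.5 FPKM.

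**Figure D2:**
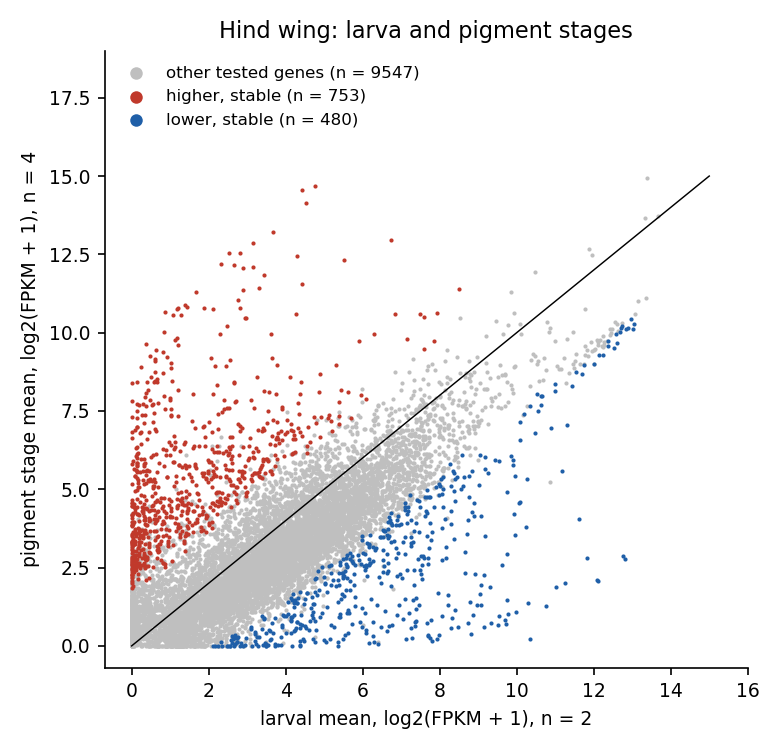
Mean level of each tested gene in the larval hind wing (x axis, 2 libraries) and at the pigment stages (y axis, 4 libraries), both as log2(FPKM + 1), with the line of equal levels. Red and blue mark genes beyond 1 log2 under every scaling that kept the gene. The 753 stable higher genes start mostly near 0, while at the right edge a compact band of the most abundant larval genes lies below the line.

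The genes with the largest rises became the leading transcripts of the pigmenting wing. Gene c26916_g2 was at 26.4 and 14.6 FPKM in the larva, at 28387 and 20170.1 with ommochrome onset and at 22436 and 25407 with melanin onset (a log2 change of 10.18 with SE 0.307, limma adjusted p = 1.88e-08). It was already at 13683 and 11432 FPKM at 5 d but at 90 and 51.5 at 72 h, and at 18623 to 28593 in the 4 forewing libraries. Gene c26824_g5 was at 31.5 and 21.2 FPKM in the larva, at 30203 and 31387 with ommochrome onset and at 24432 and 19854 with melanin onset (log2 change 9.92, SE 0.762, adjusted p = 4.34e-06). It was already at 24238 and 31544 FPKM at 5 d, and at 578 and 7161 in the 72 h libraries, which lay far apart. All 4 pigment libraries lay far above both larval ones for both genes, which were also the pair with the largest gain in FPKM. Together they held 0.00694% and 0.00452% of the summed FPKM in the larval libraries and 7.21% to 10.7% in the pigment stage libraries, where each ranked among the top 3. At 5 d they already held 6.07% and 7.49%, and in the forewing regions 5.27% to 9.11%.

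The largest falls were of genes that ranked high in the disc and were close to the floor in the pigmenting wing. Gene c6158_g1 was at 7218 and 7235 FPKM in the larva and ranked 12 and 11 there. At the pigment stages it was at 2.46, 1.38, 18.3 and 1.36 FPKM in ommochrome replicates 1 and 2 and melanin replicates 1 and 2 (log2 change -10.68, SE 0.756, adjusted p = 2.62e-06). Gene c18780_g1 was at 5265 and 3541 FPKM in the larva and at 0.79, 3.31, 8.49 and 0.08 in the same order (log2 change -10.50, SE 0.73, adjusted p = 2.42e-06). Both were at under 1 FPKM in all 4 forewing libraries. For both genes melanin replicate 1 was the highest of the 4 pigment libraries, and without it their log2 changes were -11.44 and -11.28.

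Low residues of larval genes were most often highest in that library. Among 80 genes with at least 100 FPKM in both larval libraries and a fall of at least 5 log2, melanin replicate 1 was the highest of the 4 pigment libraries in 47. The median of these genes was 2.73 FPKM in that library, 1.26 and 1.35 in the ommochrome libraries and 0.85 in melanin replicate 2, against 430.3 and 370 in the larva. Over all tested genes, the median of melanin replicate 1 was also the highest of the 4 pigment libraries, at 7.12 FPKM. It was 6.49 and 6.02 FPKM in the ommochrome libraries and 6.07 in melanin replicate 2. How often melanin replicate 1 was the highest among all tested genes was not counted, so the 47 have no baseline. The depth of 0.46 goes with this library, and the part of depth in these residues was not tested. Leaving the library out gave 1526 genes higher and 5087 lower.

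**Figure D3:**
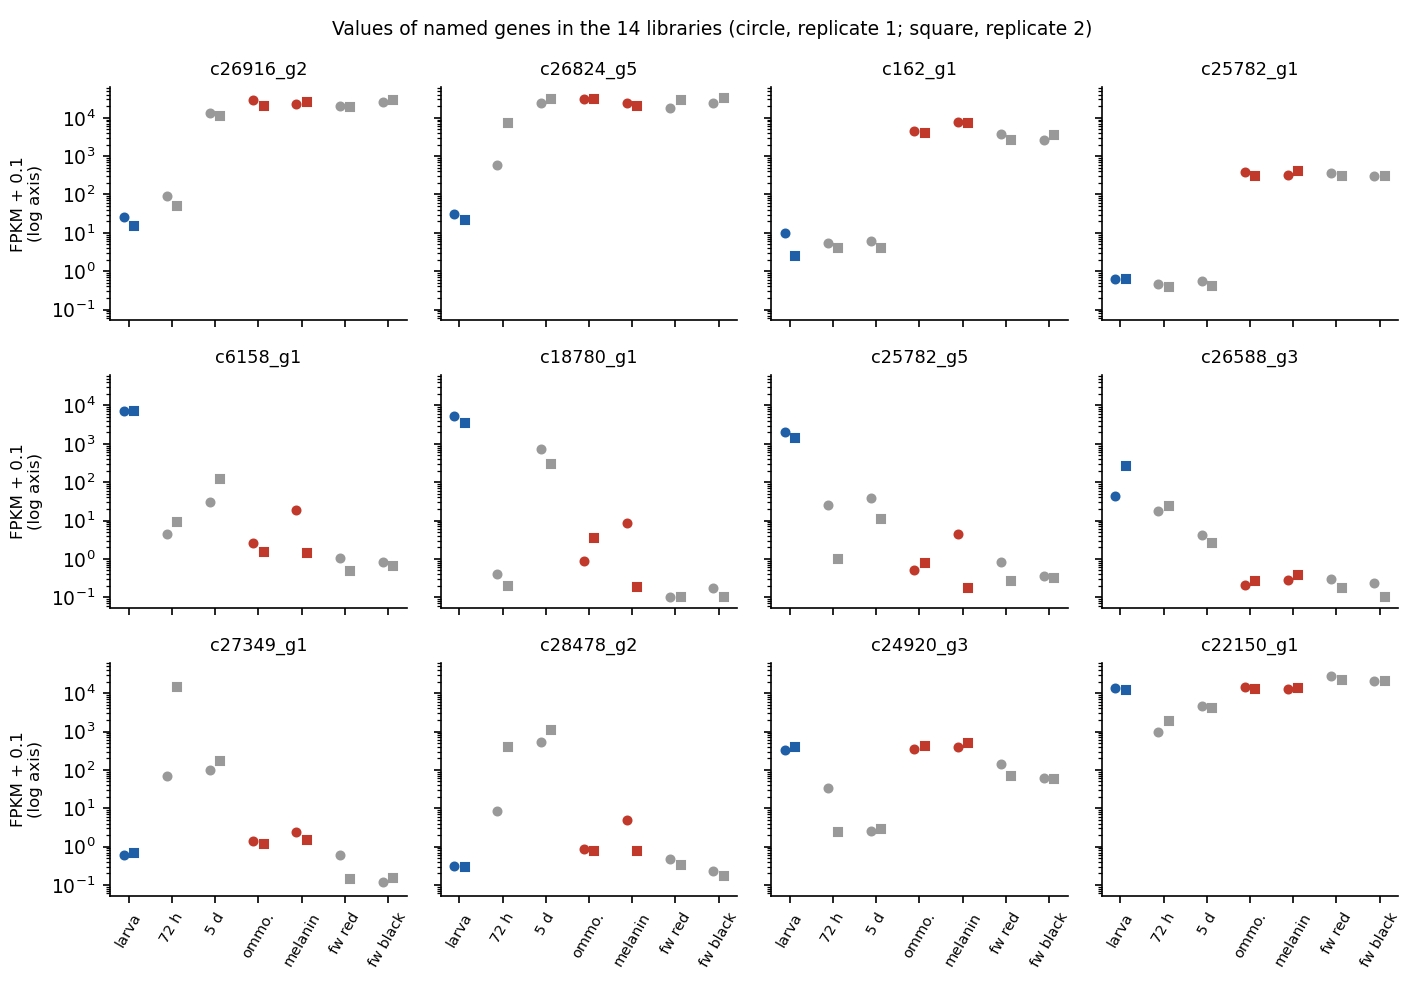
FPKM plus 0.1 on a log axis for 12 named genes in each of the 14 libraries, with larval hind wings in blue, pigment stage hind wings in red and all other libraries in grey; circles are replicate 1 and squares replicate 2. The upper row holds genes that rose, the middle row genes that fell, and the lower row genes that were near their larval level at the pigment stages after moving away at 72 h and 5 d.

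The most abundant genes of the disc fell by similar amounts. Of the 113 genes with at least 1000 FPKM in both larval libraries, 104 fell by limma and 0 rose, while 46.5% of all tested genes fell and 14.6% rose. The 113 genes had a median change of -2.60 log2 and quartiles of -2.90 and -2.24. The 108 of them that were lower in mean FPKM made up 61.1% of the summed FPKM fall over all genes with a lower mean at the pigment stages. The spread between these quartiles was 0.658 log2, against 1.88 log2 for the 721 genes at 100 to 1000 FPKM and 1.16 log2 for the 4215 genes at 10 to 100 FPKM. With median-of-ratios factors the median change of the 113 genes was -1.76 log2, against -0.88 and -0.30 for the other classes, so the most abundant genes stayed the lowest of the 3 classes under that scaling. Genes were put in these classes by their larval values, which also enter the change, and the classes were chosen after the data were seen, so the counts are a description.

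Of the 113 genes, 78 changed by between -4 and -2 log2. They held 40.9% and 39.9% of the summed FPKM in the larva, 14.9% and 16.2% at 72 h, 11.2% and 8.05% at 5 d and 8.52% to 11% at the pigment stages. In the forewing regions, which were on neither side of the comparison, they held 9.56% to 11.4%. The fall was thus mostly complete early: the median gene of the band moved by -1.72 log2 from larva to 72 h, by -0.80 from 72 h to 5 d and by -0.11 from 5 d to the pigment stages.

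Members of the band remained abundant after the fall, which its limits of 1000 FPKM in the larva and -4 log2 make likely. The gene with the largest loss in FPKM, c20436_g1, was at 10006 and 10974 FPKM in the larva and at 2380, 1959, 2084 and 2314 at the pigment stages (log2 change -2.27, SE 0.265, limma adjusted p = 5.8e-05). Gene c23854_g3, in a component of 3 genes, went from 9200.1 and 7796 FPKM to 1026, 773, 1427 and 1704 (log2 change -2.84, SE 0.254, adjusted p = 1.06e-05). In both, all 4 pigment libraries lay below both larval ones, and both changes were called under the 4 scalings that kept these genes, with the smallest values, -1.43 log2 for c20436_g1 and -2.01 log2 for c23854_g3, under median-of-ratios. Of all 113 genes, 95 kept at least 100 FPKM in each pigment library and 5 were under 10 FPKM in each.

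The make-up of the RNA pool changed in parallel. The stable higher set held 0.67% and 0.527% of the summed FPKM in the larva, against 46% and 45% in the ommochrome libraries and 37.3% and 44.7% in the melanin libraries. The stable lower set held 31% and 30.2% in the larva and 3.64% to 4.49% at the pigment stages. These shares describe the sets and are no test, since the same libraries chose them. In forewing regions, which were on neither side of the comparison although all 14 libraries entered the shared fit and its scaling, the shares were 45.5% to 49.9% and 3.83% to 4.6%. At 5 d the stable higher set already held 43.6% and 47.8%. The 72 h libraries differed from each other, with 5.87% in replicate 1 and 19.7% in replicate 2.

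**Figure D4:**
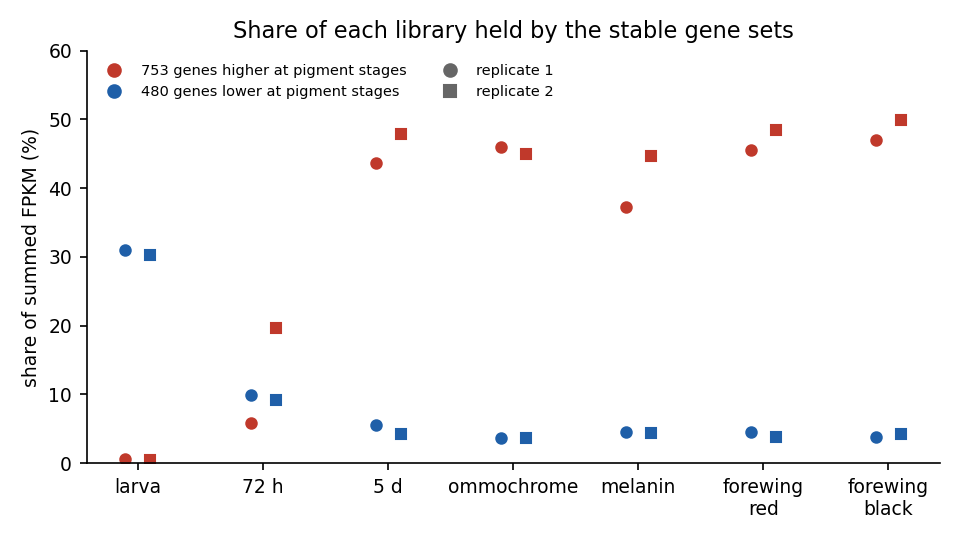
Share of each library's summed FPKM held by the 753 stable higher genes (red) and the 480 stable lower genes (blue), with replicate 1 as circles and replicate 2 as squares. The red share goes from under 1% in the larva to between 37.3% and 46% at the pigment stages, and the 5 d and forewing libraries, which are on neither side of the comparison, lie at 43.6% to 49.9%.

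The pool also became more concentrated in a few genes. The 10 most abundant genes held 11.6% and 12.2% of the summed FPKM in the larva and 27.2% to 29.8% at the pigment stages. It took 85 and 87 genes to reach 50% of the total in the larva, and 56 to 67 genes at the pigment stages. The pool was more concentrated still at 72 h and 5 d, where the 10 most abundant genes held 31.9% to 38.4% and 20 to 44 genes reached 50%. The lists of the 100 most abundant genes shared 41 genes. Of the larval 100, 92 fell and 0 rose on the deposited scale, and 86 fell and 5 rose with median-of-ratios factors. Of the 100 of the pigment stages, 54 rose and 33 fell, or 62 and 29 with those factors. Of all tested genes, 14.6% rose and 46.5% fell on the deposited scale. Both lists were drawn from levels that also enter the change, which favours falls in the larval list and rises in the other. These counts are therefore a description. The number of genes with at least 1 FPKM changed little, from 9338 and 9168 in the larva to 8959 to 9115 at the pigment stages.

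A smaller group of genes went from off to on. Here a gene counted as on with at least 5 FPKM in every library of an arm and as off with under 1 FPKM in every library. By this rule 234 genes were off in the larva and on at the pigment stages, and 95 were on in the larva and off at the pigment stages. With limits of 10 and 0.5 FPKM the counts were 95 and 22. All genes of both kinds were also called by limma (61.1% of all tested genes were), as the rule makes likely. The 234 genes had a median of 23.5 FPKM at the pigment stages, 47 of them averaged at least 100 FPKM, and 22 were listed at 0 in both larval libraries. The 95 genes had a median of 19.7 FPKM in the larva, 14 averaged at least 100 FPKM, and 8 were listed at 0 in all 4 pigment libraries.

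Forewing regions, which the rule did not use, held many of the same states. Of the 234 genes switched on, 165 (70.5%) had at least 5 FPKM in all 4 forewing libraries and 14 (5.98%) were under 1 FPKM in all 4. Of the 95 genes switched off, 0 had at least 5 FPKM in all 4 and 87 (91.6%) were under 1 FPKM in all 4. Among all tested genes, which include every pigment stage level, those shares were 44.6% and 15.4%. The forewing shares among all genes with the same pigment stage levels were not counted. The shares of the switched genes are therefore a description.

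The 234 genes came on over the whole pupal period. In both 72 h libraries 48 of them had at least 5 FPKM, a further 102 reached that level in both 5 d libraries, and 84 did so only at the pigment stages. These are first crossings. At 5 d 142 genes were at that level in both libraries, so some of the 48 were not. The 95 genes went off earlier. At 72 h 46 of them were under 1 FPKM in both libraries, a further 20 were so at 5 d, and 29 only at the pigment stages. In both 5 d libraries 59 genes were under 1 FPKM, so some of the 46 were not.

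The same question was put to all strong changes. A gene was included if it was called, changed by at least 3 log2, had its arms fully separated and averaged at least 5 FPKM in the higher arm, and it was assigned to the interval with the largest part of its net change. Of 378 such falls, 299 (79.1%) fell mostly between larva and 72 h, 59 between 72 h and 5 d and 20 (5.29%) after 5 d. Of 467 rises, 166 (35.5%) rose mostly between larva and 72 h, 177 (37.9%) between 72 h and 5 d and 124 (26.6%) after 5 d. With median-of-ratios factors, 142 of 199 falls (71.4%) and 210 of 580 rises (36.2%) belonged to the first interval. The pseudocount moved these counts further. With a pseudocount of 5 the 3 intervals held 79, 71 and 84 rises and 172, 26 and 11 falls, so that the last interval held the most rises. With 0.1 they held 224, 243 and 150 rises and 410.0, 91 and 49 falls. In a check chosen after the data were seen, with 72 h replicate 1 alone at that point the first interval held 280 falls and 150 rises, and with replicate 2 alone 311 and 163. These steps share libraries and sum to the net change, so they describe the path and are not tested against each other.

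**Figure D5:**
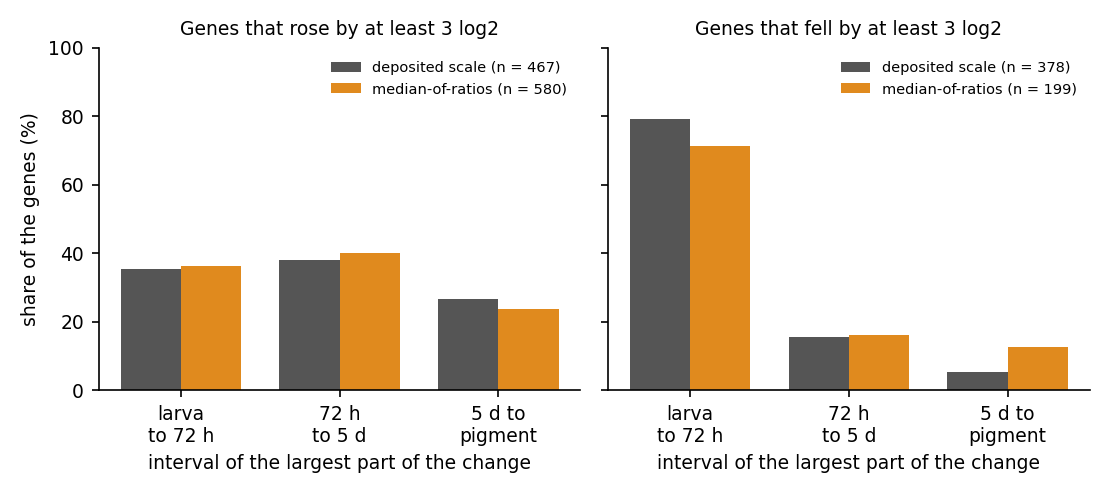
Share of the genes that rose (left) or fell (right) by at least 3 log2 whose largest part of the net change lay in each of 3 intervals, on the deposited scale (grey) and with median-of-ratios factors (orange). Falls concentrate in the first interval at 79.1% and 71.4%, while rises spread over all 3 intervals, whose order depended on the pseudocount.

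The latest rises came at some point between 5 d and the pigment stages. Gene c162_g1 was at 9.84 and 2.34 FPKM in the larva, at 4.05 to 5.96 in the 4 libraries of 72 h and 5 d, and at 4615, 3987, 7648 and 7514 at the pigment stages (net log2 change 9.89, SE 0.403, limma adjusted p = 9.01e-08). The largest of the falls assigned to the last interval, c24342_g1, was uneven throughout, at 3913 and 1011 FPKM in the larva, 1022 and 8.06 at 72 h, 102 and 36.7 at 5 d and 0.39, 0.43, 11.2 and 0.14 at the pigment stages (log2 change -9.76, SE 1.57, adjusted p = 0.00043). Its interval is uncertain because the 72 h libraries lay so far apart. Gene c26588_g3, the largest of the falls assigned to 72 h to 5 d, declined at each stage, from 43.3 and 268 FPKM in the larva through 17.6 and 24.5 at 72 h and 4.16 and 2.48 at 5 d to 0.11 to 0.27 at the pigment stages (log2 change -6.53, SE 0.549, adjusted p = 7.42e-06).

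Not every path was direct. Of the 467 rises, 83 had gone beyond their pigment stage mean by at least 1 log2 at 72 h or 5 d, and 124 made a step of more than 1 log2 against their net direction. Of the 378 falls, 41 had been lower than their pigment stage mean by at least 1 log2, and 102 made such a back step. Gene c18780_g1 was one of these, at 0.31 and 0.1 FPKM at 72 h and at 732.1 and 298 at 5 d.

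The ommochrome and melanin stages had similar counts of calls and similar median changes against the larva. Against the larva, 6097 genes (56.6%) were called at the ommochrome stage, 1390 (12.9%) higher and 4707 (43.7%) lower. At the melanin stage 5954 (55.2%) were called, 1472 (13.7%) higher and 4482 (41.6%) lower. These percentages are all of the tested genes. Both splits moved with the scaling. Median-of-ratios factors gave 2099 rises and 2018 falls at the ommochrome stage and 2146 and 2149 at the melanin stage. Leaving out the 10 most abundant genes gave 2382 and 1585, and 2239 and 1875. Both comparisons use the same larval libraries. The 467 strong rises had median changes of 4.16 and 4.31 log2 at these stages, and the 378 strong falls of -3.97 and -3.94. The difference between the stages itself was called for 27 of all tested genes (0.25%), for 3 of the strong rises and for 0 of the strong falls, with 54 (11.6%) and 34 (9%) at an unadjusted p under 0.05. Of all tested genes, 942 (8.74%) passed that unadjusted limit. The stages lay at least 1 log2 apart in 69 of the strong rises and 24 of the strong falls. The strong changes were chosen by the mean of both stages. With 2 libraries per stage, few calls do not show that the stages were alike.

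Those 3 rises were named after their values were seen. Gene c28846_g6 was at 0.65 and 0.3 FPKM in the larva, at 17.1 and 9.13 at the ommochrome stage and at 73.6 and 169.9 at the melanin stage (melanin minus ommochrome 3.06 log2, limma adjusted p = 0.013). Gene c27080_g1 was at 0.25 and 0.08 FPKM in the larva, at 3.09 and 4.66 and then at 16.6 and 17.9 (difference 1.92 log2, adjusted p = 0.0165). Gene c8607_g1 went the other way, from 0 in both larval libraries to 27.4 and 24.9 FPKM with ommochrome onset and 8.3 and 7.24 with melanin onset (difference -1.63 log2, adjusted p = 0.0189), and it was at 0 to 0.31 in the forewing regions.

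Genes of one assembled component often moved together, but some parted. Of 1513 components with 2 or more tested genes, 584 held at least 2 genes that were called with separated arms and at least 5 FPKM in the higher arm. In 422 of them all such genes fell, in 77 all rose and in 85 both directions occurred, where 46.5% of all tested genes fell and 14.6% rose. With median-of-ratios factors, and counting calls alone, 458 components held at least 2 called genes, and in 196 all fell, in 182 all rose and in 80 both directions occurred. Counting only calls made the same way under every scaling that kept the gene, 43 of 327 components held both directions. Genes of a component can resemble each other in sequence, so that reads may be divided between them and their values are less certain.

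In 4 components a gene rose and another fell by at least 3 log2. The widest was c25782, whose 2 genes exchanged places. Its gene c25782_g5 was at 2060.5 and 1401 FPKM in the larva and at 0.42, 0.66, 4.43 and 0.07 at the pigment stages (log2 change -9.79, SE 0.966, limma adjusted p = 2.04e-05). Its gene c25782_g1 was at 0.53 and 0.52 FPKM in the larva, at 0.28 to 0.45 at 72 h and 5 d, and at 386.4, 299, 320.2 and 412 at the pigment stages (log2 change 7.85, SE 0.183, adjusted p = 7.24e-09). The fall came first, with c25782_g5 at 25.8 and 0.88 FPKM at 72 h, and 38.6 and 10.6 FPKM at 5 d, before c25782_g1 rose. In the forewing regions c25782_g1 was at 299 to 368 FPKM and c25782_g5 at 0.16 to 0.73. The other such components, given because they are few, were c20018, c24256 and c25741.

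Part of the genes that moved away in between ended within 1 log2 of their larval level. The mean of the 72 h and 5 d groups was tested against the mean of both ends, and 5998 of all tested genes (55.6%) differed. Of all tested genes, 868 (8.05%) were higher and 5130 (47.6%) lower in between, with a median of -0.54 log2. The 5998 include genes with a larger net change, which did not return. Median-of-ratios scaling gave 1590 rises and 1682 falls. Among the 5347 genes with a net change under 1 log2 in size, 2324 were called, 421 higher and 1903 lower in between. Of these, 51 were at least 3 log2 higher in between and 11 at least 3 log2 lower. With median-of-ratios factors 1666 such genes were called, 900 higher and 766 lower, and the counts at 3 log2 were 54 and 3. In 26 of the 51 genes, all 4 libraries of 72 h and 5 d lay above all 6 libraries of the ends.

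The leading genes of this kind rose from near 0 and returned. Gene c27349_g1, in a component of 4 genes, was at 0.51 and 0.6 FPKM in the larva, at 68.9 and 14852 at 72 h, at 101 and 168 at 5 d and at 1.06 to 2.37 at the pigment stages (difference 7.54 log2, limma adjusted p = 0.000563). Gene c28478_g2 was at 0.21 and 0.19 FPKM in the larva, at 8.38 and 406 at 72 h, at 523 and 1084 at 5 d and at 0.67 to 4.82 at the pigment stages (difference 7.02 log2, adjusted p = 0.000163). Both values rest on 72 h libraries that lay far apart: without 72 h replicate 1 they were 9.47 and 8.38 log2, and without replicate 2 they were 5.60 and 5.66 log2. In the opposite form, c24920_g3 was at 339 and 394 FPKM in the larva, at 32.9 and 2.3 at 72 h, at 2.48 and 2.72 at 5 d and at 357 to 499 at the pigment stages (difference -5.98 log2, adjusted p = 2.54e-05). Gene c13492_g2 was at 80.9 and 18.8 FPKM in the larva, at 1.3 and 0 at 72 h, at 0.36 and 0.54 at 5 d and at 25.2 to 66.2 at the pigment stages (difference -4.83 log2, adjusted p = 2.88e-05).

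A net change within 1 log2 was shown for a minority of genes. The 95% interval of the change lay inside 1 log2 on either side of 0 for 1691 genes (15.7%) on the deposited scale and for 3291 with median-of-ratios factors. Of the 4189 genes that were not called, 1607 met this limit, so for the rest a change beyond 1 log2 could not be set aside at this replication. The most abundant of the 1691 was c22150_g1, in a component of 3 genes, at 13776 and 12088 FPKM in the larva and at 14075, 13137, 12790.0 and 13571 at the pigment stages (log2 change 0.05, 95% interval -0.58 to 0.69). It was at 953.5 and 1855 FPKM at 72 h and at 4520.3 and 4015 at 5 d. Its net direction depended on scaling, with 0.89 log2 under median-of-ratios and -0.90 under quantile normalization, each past the limma threshold. The next, c18755_g1, was at 579 and 417 FPKM in the larva and at 592, 504, 703 and 592 at the pigment stages (log2 change 0.27, 95% interval -0.26 to 0.81), and it rose by 0.79 to 1.26 log2 under the other 4 scalings.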

How the data were processed

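Polyadenylated RNA of V. cardui wings was sequenced as 150 bp paired-end reads, per the labels' protocols, and aligned with Bowtie (no version given), per the submitters' processing notes; the series title names a de novo transcriptome. No source used here names the assembler or the program that made the values. The authors deposited FPKM, 1 column per library, rounded to 2 decimals. Total read numbers are unknown; relative depth was estimated from steps between 0.15 and 3 FPKM, a method that recovered 13 of 14 simulated libraries. Pairwise estimates lay within 0.1 log2 of the fitted depths for 55 of 91 pairs of libraries.

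Values were analysed as log2(FPKM + 1) with limma 3.58.1 in R 4.3.3, with 7 group means over 14 libraries, no covariate, 7 residual and 2.88 prior degrees of freedom, a mean-dependent prior and two-sided tests adjusted by the Benjamini-Hochberg method over 10780 genes. The pigment stage arm was the mean of the ommochrome and melanin group means. On simulated data for this comparison the model recovered 40.5%, 83% and 86.5% of changes of 1, 2 and 3 log2, run on 10780 genes, with 6.04% of calls false. The simulation changed 200 genes per size, equally up and down, without a shift between libraries. In the data 61.1% of genes were called and the median gene shifted, so these rates need not hold for them.

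With identifiers alone, at most 2 rising and 2 falling genes were named per class (net change, FPKM gain or loss, interval, component pair), by size among called genes with separated arms and at least 5 FPKM in the higher arm. Detour genes had the largest called detour with a net change under 1 log2 and at least 5 FPKM on the higher side, and steady genes were the most abundant whose 95% interval lay within 1 log2. Classes and rules were chosen with earlier results of these data known. Python 3.11.15 and matplotlib 3.10.9 were used for depth and figures. Alternatives covered pseudocount, filter, scaling, libraries in the fit, spread prior, replicate block and each library left out.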

Additional observations from a re-analysis of the deposited data

Results flagged for a closer look

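Melanin replicate 1 stood apart from the other 3 pigment stage libraries in 5 of 26 values screened for a single library far from the rest. Chance alone triggers this screen in about 1 in 20 groups of normally distributed values. FPKM near the floor need not be distributed so, and several of the 26 values are related. The rate need not hold here. The 4 libraries come from both pigment stages. Gene c6158_g1 was at 18.25 FPKM there, against 1.36 to 2.46 in the others. Gene c24342_g1 was at 11.23 FPKM, against 0.14 to 0.43, and c25782_g5 at 4.43 FPKM, against 0.07 to 0.66. Gene c28478_g2, which was high at 72 h and 5 d, was at 4.82 FPKM, against 0.67 to 0.78. The stable higher set held 37.27% of summed FPKM there, against 44.7% to 46% in the others. This library had the lowest estimated depth, 0.46 of larval replicate 1, and its part in these values was not tested.

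For 3 strongly risen genes the distance from the larva differed between the pigment stages by limma's test of the difference. The difference, melanin minus ommochrome, was 1.92 log2 for c27080_g1 (adjusted p = 0.0165), 3.06 log2 for c28846_g6 (adjusted p = 0.013) and -1.633 log2 for c8607_g1 (adjusted p = 0.0189).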

How the results depend on the processing

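The count of genes called between larva and pigment stages was 4594 to 7001 under the alternatives tried one at a time and 3486 when the same direction was required under all 5 scalings. Beyond 1 log2 it was 1536 with a pseudocount of 5, 1581 with median-of-ratios factors, 1593 with the top 10 genes of each library removed and 1233 under all 5 scalings. For the 3486 and the 1233 genes, a gene removed with the top 10 was judged only under the scalings that kept it. The genes called between larva and ommochrome stage numbered 3967 with the 10 most abundant left out. Those of the detour at 72 h and 5 d numbered 3272 with median-of-ratios, 3482 with quantile normalization and 3663 with the 10 most abundant left out. With a single library left out, the counts were 4989 to 7001 for the net change, 1551 (without larval replicate 2) to 2677 beyond 1 log2, 4526 to 6540 for ommochrome, 4414 to 6411 for melanin and 4862 to 6077 for the detour. A larval arm of 1 library is assumed to vary like the other groups. Median-of-ratios scaling without melanin replicate 1 gave 2293 rises and 2205 falls. Replicate numbers are shared by label only: deviations of same-numbered libraries correlated at 0.06 (larva and ommochrome), 0.01 (larva and melanin) and -0.08 (ommochrome and melanin), and with the replicate block the net count was 6599. Among the named genes, calls changed for c22150_g1, at -0.897 log2 with quantile normalization, and c18755_g1. The cause of these changes was not tested.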
